A study of Mus musculus with 34 samples.

Results

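The transcripts described here are those that wild-type embryos carried in late 2-cell embryos but hardly at all one step before or in the blastocyst. A gene symbol was taken when its mean FPKM (sequenced fragments scaled to transcript length and library size) over the embryos labelled WT was under 1 in zygotes, at least 50 in late 2-cell embryos and under 1 in blastocysts. Symbols of the best known multicopy 2-cell families (Zscan4, Usp17l, Tcstv, Tdpoz, Obox, Pramef, Pramel, histone genes and some named genes) were left out. Of the 43349 symbols present in all 3 FPKM tables, 41 met the rule, and 7 more met the limits but were left out by name. The genes were thus chosen by the FPKM of the WT embryos at all 3 stages, so their course in WT embryos is given as a description with no test, and tests are given for the R442Q embryos.

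The study injected mouse zygotes with mRNA for CHK1, the kinase that relays DNA damage and replication stress to the cell cycle, either WT or carrying R442Q. Single embryos without the zona pellucida were sequenced after SMART-seq2 amplification. After WT mRNA there were 5 zygotes, 4 late 2-cell embryos and 7 blastocysts, and after R442Q mRNA 6, 5 and 7. Zygotes and late 2-cell embryos are labelled as having had no other treatment, while all 14 blastocysts were cultured with a CHK1 inhibitor at 30 nM, so stage and inhibitor cannot be told apart. Every group thus carries injected CHK1 mRNA on top of the embryo's own gene, no group without injection was analysed here, and nothing in the labels links embryos to mothers or injection days, so p-values measure the spread between these embryos.

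A mouse zygote starts with RNA made in the oocyte, and its own genome is switched on in a minor wave before the first division and a major wave in the 2-cell embryo. Some transcripts of that wave are made briefly and cleared during the next divisions. Such genes often belong to young multicopy families or are retrocopies, many lie near endogenous retroviral elements, and transcription factors such as DUX, the OBOX proteins and NR5A2 are known to act on this programme.

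A zygote library held 7183632 to 11296522 estimated counts and a late 2-cell library 5727956 to 8916343, and the depth of the blastocysts is unknown because only FPKM was used. Chek1, read from the embryo's own gene and possibly from the injected mRNA, was at 6020 ± 1740 CPM (counts scaled to the library total; SD, n = 5) in WT and 6777 ± 583 (n = 6) in R442Q zygotes and at 489 ± 137 (n = 4) and 469 ± 185 (n = 5) in late 2-cell embryos, which does not check the variant itself. The summed FPKM of 22 oocyte transcripts was 15068 to 20547 in zygotes, 2176 to 8710 in late 2-cell embryos and 60.5 to 110.4 in blastocysts, and that of 13 blastocyst markers was at least 1579.6 in every blastocyst and at most 239 in any other embryo. The 8 late 2-cell markers summed to 26.4 to 71.4 FPKM in WT and 58.3 to 247 in R442Q zygotes, 128.5 to 1530 in WT and 648 to 3123 in R442Q late 2-cell embryos and at most 3.66 in blastocysts, so the highest R442Q zygote was above the lowest late 2-cell embryo. The first WT late 2-cell replicate stood apart: it had the highest FPKM of the 4 WT embryos in 31 of the 41 genes, while replicate 3 had the lowest in 22 and replicate 2 in 17. Without that replicate the rule finds 26 genes, all of them among the 41. In zygotes, R442Q replicate 2 had the highest value of all 11 embryos in 19 of the 41.

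The 41 genes were short, often without introns and often copies. By GENCODE M21, 21 were protein-coding, 16 were pseudogenes, of which 11 processed and 5 unprocessed, 3 were long intergenic non-coding RNAs and 1 had no settled type. Their median transcript length was 1091 bases, against 3101.5 over all genes tested in late 2-cell embryos, and 43.9% had a single exon, against 10.06%. On the X chromosome lay 7 of them, 17.07% against 3.66% of all genes tested. The 104 genes that met the same zygote and late 2-cell limits but stayed at 1 FPKM or more in WT blastocysts lay between, with a median length of 1991.5 bases, 21.15% with a single exon and 7.69% on the X.

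Sequence comparison of the transcripts placed 27 of the 41 in 4 related groups. There were 8 relatives of the Tdpoz genes, which encode proteins with a TRAF and a POZ domain, and they lay between positions 93068823 and 94266784 of chromosome 3 (GRCm38): Gm4858, Gm5852, Gm9113, Gm9125, Gm10697, Gm5543, Gm10696 and Gm4778. The PRAME group, relatives of a leucine-rich repeat family active in germ cells and early embryos, held 4 genes of chromosome 4: B020004J07Rik, Gm12800, Gm12789 and Gm13078. A further 13 were copies of genes for widely expressed proteins that mostly handle RNA. They included 2 copies of Alyref, an mRNA export adaptor (Gm4850 and Gm28645), 4 of Pabpc4, a poly(A)-binding protein (Gm12626, Gm12612, Gm11839 and Gm16345), and single copies of Rbm10 (Gm15455), Tgs1 (Gm5117), Taf10 (Gm4799), Ube2l3 (Gm10705), Rps7 (Gm7285), Noct (Gm43798) and Eif1a (Gm4027). The remaining pair of related genes, Gm11544 and A430060F13Rik, were pseudogenes similar to Tmem92. The other 14 were 7 X-linked genes (Fthl17d, Tsga8, Cypt3, Esx1, Yy2, BC061195 and Gm14742) and 7 autosomal ones (Exoc3l2, Slc19a3, Ficd, Tnfaip8l2, Bex6, Rfpl4b and B020004C17Rik).

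Because reads from copies can be assigned to more than one of them, the values of many members are uncertain. Of the 41 transcripts, 33 shared at least 1 stretch of 50 bases with another gene, 13 shared at least 50% of such stretches, and 8 shared none. Gm10697 shared 100% with Tdpoz5 and had the same counts in every zygote and late 2-cell embryo, so it is the same measurement as a gene that was left out by name. All 50-base stretches of Yy2, a retrocopy of the transcription factor gene Yy1, also occur in the same orientation in Mbtps2, the gene it overlaps. Use of strand in counting would therefore not tell the 2 genes apart. Ficd, Tsga8, Slc19a3, Exoc3l2, Esx1, Rfpl4b, Tnfaip8l2 and Bex6 were the 8 that shared none.

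Upstream sequence was available from RefSeq (GRCm38.p6) for 15 of the 41, and 4 stretches of 250 bases before the annotated start are shown because these genes differ most in base composition or hold a searched motif. Ficd, the 1 member called lower in R442Q late 2-cell embryos, starts behind a CpG-rich stretch. Tsga8, with the highest fitted log2 fold change of the members but not called, starts behind an AT-rich one. Whether upstream base composition goes with the direction of change was not tested. CG dinucleotides are in capitals in these 2 sequences, from chr5:113735532-113735781 (plus strand) and chrX:83487925-83488174 (minus strand).
Ficd: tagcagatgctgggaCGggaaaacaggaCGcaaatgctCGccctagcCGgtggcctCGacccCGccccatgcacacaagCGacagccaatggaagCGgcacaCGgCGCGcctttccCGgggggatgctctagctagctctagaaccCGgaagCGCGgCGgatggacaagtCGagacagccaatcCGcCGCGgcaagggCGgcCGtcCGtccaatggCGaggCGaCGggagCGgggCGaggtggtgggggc
Tsga8: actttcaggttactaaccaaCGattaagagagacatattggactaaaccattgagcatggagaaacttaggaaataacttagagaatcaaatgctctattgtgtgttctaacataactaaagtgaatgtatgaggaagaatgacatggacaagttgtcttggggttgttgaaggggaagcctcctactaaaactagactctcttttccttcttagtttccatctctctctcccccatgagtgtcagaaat
The Ficd stretch held 28 CG dinucleotides at 68.0% GC and the Tsga8 stretch 1 at 38.4%, against medians of 6 and 52.4% over all 32851 promoters of the table and of 4 and 50% over the 15 members.

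The next 2 stretches hold matches to searched motifs, in capitals: GGATTA, a core recognised by OBOX proteins, in Gm4027 (chr12:87618659-87618908, plus strand) and TATAAA, the TATA box, on both strands with overlap in B020004C17Rik (chr14:57014884-57015133, plus strand).
Gm4027: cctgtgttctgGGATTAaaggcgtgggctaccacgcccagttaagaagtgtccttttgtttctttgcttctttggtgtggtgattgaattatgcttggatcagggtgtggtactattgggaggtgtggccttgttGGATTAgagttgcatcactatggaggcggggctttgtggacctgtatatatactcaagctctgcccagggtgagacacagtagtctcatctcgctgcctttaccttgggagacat
B020004C17Rik: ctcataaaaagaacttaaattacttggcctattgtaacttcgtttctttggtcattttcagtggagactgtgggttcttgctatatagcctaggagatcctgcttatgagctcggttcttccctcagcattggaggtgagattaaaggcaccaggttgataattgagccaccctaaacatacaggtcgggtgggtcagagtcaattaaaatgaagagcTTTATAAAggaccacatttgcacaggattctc
GGATTA began 239 and 115 bases before the start of Gm4027, which was the 1 member of 15 with it, while 7.06% of all promoters had it. TATAAA began 30 bases before the start of B020004C17Rik, a spacing typical of a TATA box, and it was also in Fthl17d, so 2 of 15 members held it against 13.6% of all promoters. Searching both strands, the DUX motif was in 0 of the 15 and 0.207% of all promoters, the NR5A2 motif TCAAGGNCA in 0 and 1.62%, and the ETS motif CCGGAAG in 1, Ficd, and 8.86%. These are letter matches in this window alone.

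In WT embryos the 41 genes together held 10.4 to 16.3 FPKM in the 5 zygotes, 7538, 3606, 3322 and 5509 FPKM in the 4 late 2-cell embryos and 3.97 to 28.4 FPKM in the 7 blastocysts. They made up 0.444% to 0.904% of all counts of a WT late 2-cell embryo. Just inside the late 2-cell limit were Gm15455 (mean 50.04 FPKM) and Yy2 (50.1), and just outside were Gm9117 (48.2) and Tmem56 (47.8). At the zygote limit Slc19a3 (0.91) and Gm4850 (0.78) were in and Gm8994 (1.03) and Gm4971 (1.06) out, and at the blastocyst limit Ficd (0.923) and Gm7285 (0.899) were in and Gm7102 (1.03) and Ubtfl1 (1.21) out.

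**Figure D1:**
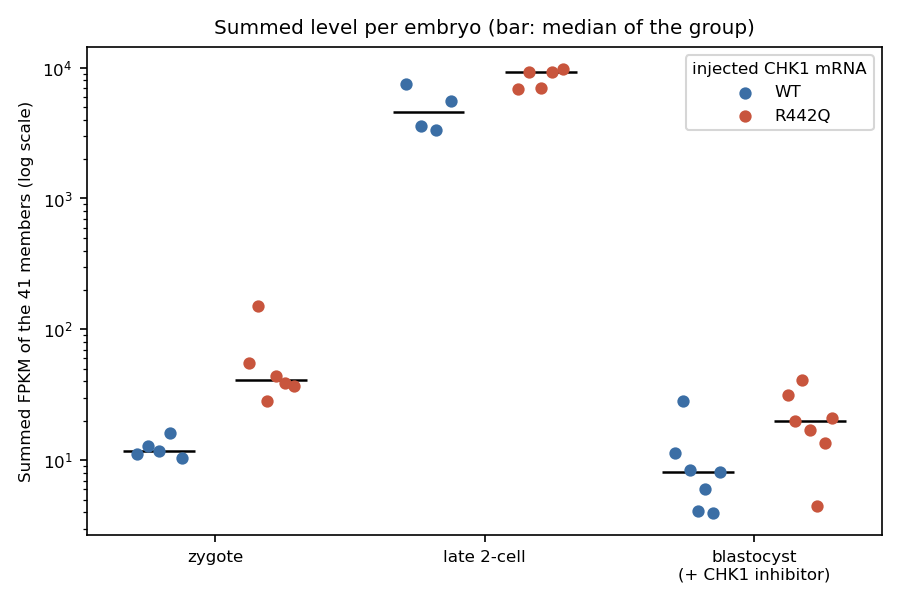
Summed FPKM of the 41 genes in each of the 34 embryos (log axis), by stage and injected mRNA; bars are group medians. Late 2-cell embryos lie between 3322 and 9720 FPKM and all other embryos at or under 152, with R442Q zygotes (28.3 to 152) above WT zygotes (10.4 to 16.3).

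In the R442Q embryos, which the rule did not use, the genes also rose from zygote to late 2-cell. All 39 members that passed the filter on low counts were higher in R442Q late 2-cell embryos than in R442Q zygotes (edgeR, adjusted p at most 0.00129). Of all genes tested, 33.4% were called higher and 64.4% in either direction. Most of the 39 had few counts in R442Q zygotes and passed the filter through the late 2-cell embryos, where they are high. Their count and adjusted p-values are therefore given as a description. With no filter on low counts, 41 of 41 members and 37.4% of all genes were called in either direction (edgeR). Rfpl4b, a member of the ret finger protein-like family, rose from a median of 1.14 FPKM (0.78 to 3.25) in 6 zygotes to 166, 366, 147, 261 and 345 FPKM in late 2-cell embryos, which is 7.33 ± 0.42 as a log2 fold change (± SE; adjusted p = 5.49e-09 in edgeR). Every R442Q late 2-cell embryo was above every R442Q zygote. The smallest change was that of Gm15455, the Rbm10 copy, at 3.04 ± 0.69 (adjusted p = 0.00129), and the next was Gm4027 at 3.86 ± 0.51 (adjusted p = 1.06e-05). Over the 36 tested members with more than 3 counts in all R442Q zygotes together, the log2 fold change ran from 3.04 to 9.78 with a median of 6.82. The other 3 tested members, Cypt3, Gm10705 and Gm11544, had 1 to 2 counts there, and with these at a bound set by 3 counts the median over the 39 was 7.09. Gm16345 and Gm43798 did not pass the filter on low counts: Gm16345 had 3 to 9 counts in R442Q late 2-cell embryos, and Gm43798 had 0 in R442Q replicate 1 and 118 to 219 in the other 4. Both were at 0 in every R442Q zygote. The 101 tested genes of the set kept in blastocysts were all called higher as well, with a median of 6.19, so the rise was shared by both sets. Each stage was deposited in its own table, so stage and table cannot be told apart.

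Applied to the R442Q columns alone, the same limits found 27 genes, of which 15 were among the 41. The late 2-cell limit was met in R442Q embryos by 35 of the 41, the blastocyst limit by 34 and the zygote limit by 21. The limit most often missed was thus that on zygotes, in 20 genes. All 3 limits were set on WT means, which favours misses in R442Q embryos, and some of the zygote misses rested on 1 embryo. Gm5543, for example, was at 6.1 FPKM in R442Q replicate 2 and at most 0.46 FPKM in the other R442Q zygotes.

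In late 2-cell embryos, 3 of the 41 genes passed the test between R442Q and WT embryos. BC061195 and Gm28645 rose and Ficd fell, out of 40 tested (edgeR, adjusted p under 0.05). Thus 2 members were called higher, against 1.22% of all 13883 genes tested, and 1 lower, against 2.95%, or 4.18% in either direction. At an unadjusted p under 0.05 were 14 of the 40, and 2910 of the 13883 genes tested. Most of the others were higher in R442Q embryos without passing the test: the fitted log2 fold change was above 0 in 31 of 40, with a median of 0.56 against 0.07 over all genes tested. The rule demanded high values in WT late 2-cell embryos and so favours lower values in R442Q embryos. Gm16345 was not tested because its 158-base transcript had too few counts. Each value is relative to the RNA of its library, so less of a transcript and more of other RNA cannot be told apart, nor can fewer cells of a kind and less RNA per cell in blastocysts.

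**Figure D2:**
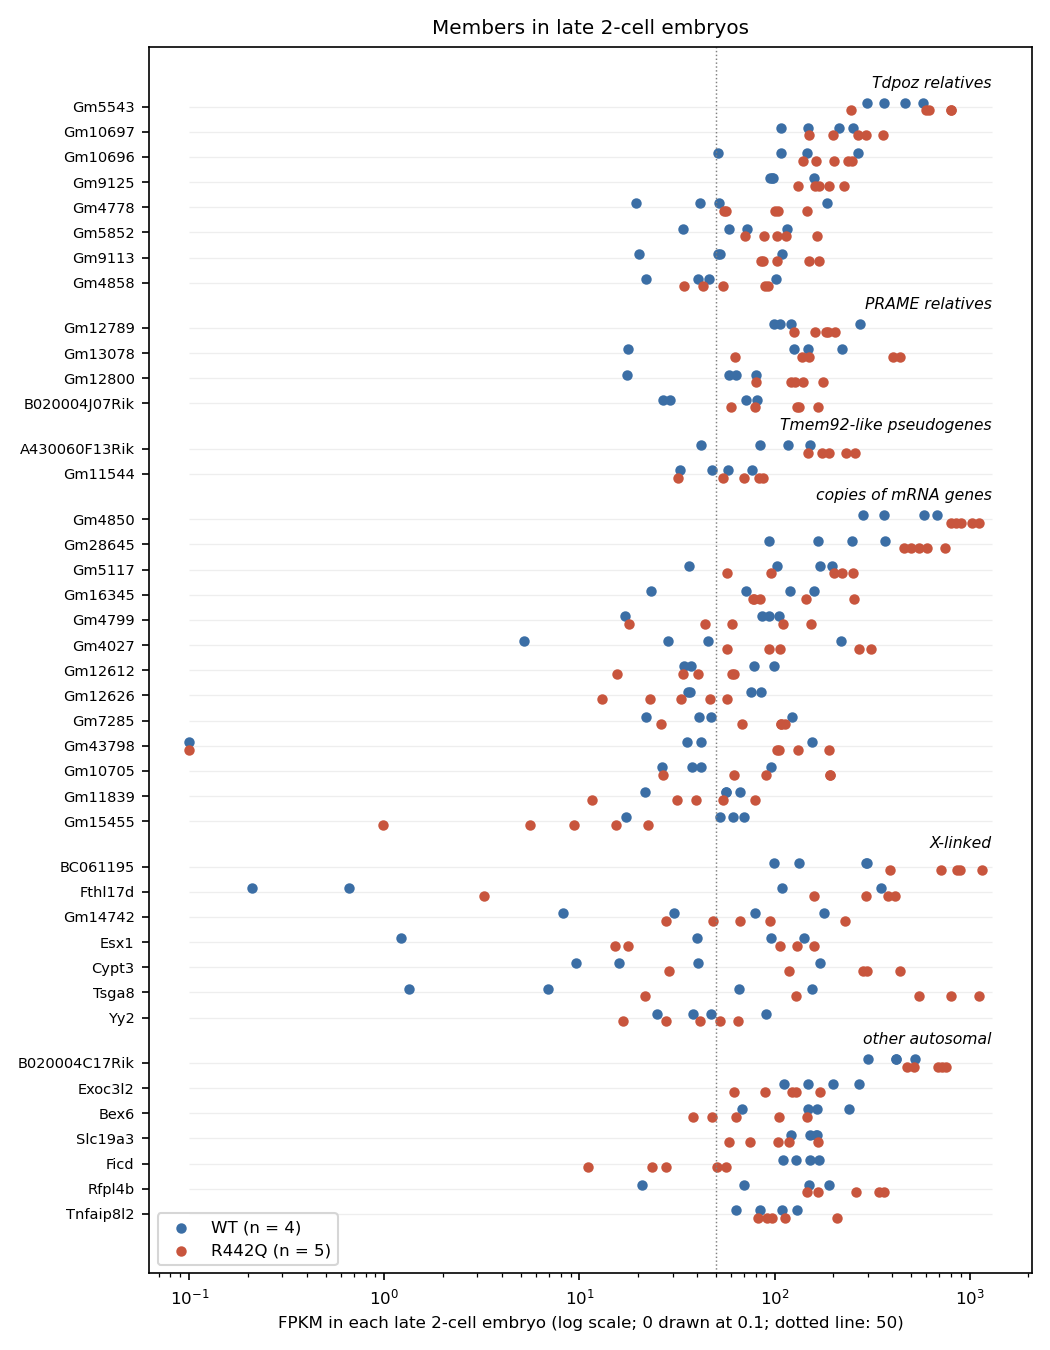
FPKM of each of the 41 genes in each late 2-cell embryo (log axis, 0 drawn at 0.1), by group of related genes; each dot is 1 embryo, WT in blue (n = 4) and R442Q in red (n = 5), and the dotted line is 50 FPKM. BC061195, Gm28645, Gm4850 and Gm12800 have every red dot to the right of every blue one, and Ficd has every red dot to the left.

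BC061195 is a long non-coding RNA gene on the X chromosome (positions 93183227 to 93183946 of GRCm38, plus strand, 2 exons). Its FPKM was 298, 133, 99.8 and 295 in the WT embryos and 389, 717, 895, 866 and 1163 in the R442Q embryos. Every R442Q embryo was above every WT embryo, with 1.98 ± 0.41 as the fitted log2 difference (± SE; adjusted p = 0.0169 in edgeR). Of its 50-base stretches 96.0% occur elsewhere and 90.5% occur in 1700003E24Rik, so copies may share this value. Gm28645, a processed pseudogene of Alyref on chromosome 1, was at 368, 166, 93.9 and 249.1 FPKM in WT and at 459, 604, 502, 748 and 547.5 FPKM in R442Q embryos. Its groups did not overlap either, at a log2 fold change of 1.42 ± 0.37 (edgeR, adjusted p = 0.0454). Ficd encodes the enzyme that adds AMP to the endoplasmic reticulum chaperone BiP. It was at 169, 129, 109.9 and 151 FPKM in WT embryos and at 23.45, 50.6, 27.9, 11.1 and 56.1 FPKM in R442Q embryos. All R442Q embryos lay below all WT embryos, and the log2 fold change was -1.97 ± 0.41 (edgeR, adjusted p = 0.0179). Every R442Q embryo lay above every WT embryo in 4 of the 40 tested members, against 3.70% of all genes tested, and below in 1, against 8.50%.

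None of the 3 calls held under every alternative. Leaving out WT replicate 2 left 0 calls, leaving out WT replicate 3 or 4 left 1, while the share of all genes called fell to 0.967%, 1.95% and 1.42%. Leaving out WT replicate 1, the one that stood apart, gave 4, beside 2.42% of all genes, with Cypt3 added at an adjusted p of 0.0413. Removing each library's trend on transcript length and GC content left 0 of 40 called (edgeR; 5 at an unadjusted p under 0.05), beside 0.909% of all genes, and moved the median of the members to 0.13, with 21 of 40 above 0, beside a median of 0.16 over all genes. The fold change went with both properties over all genes tested (Spearman's rho -0.327 with length and -0.27 with GC, across genes, which are not independent replicates) and within the 40 (-0.452 and -0.297). Members under 50% GC had a median of 0.69, with 23 of 26 above 0, and those at 50% or more a median of 0.19, with 8 of 14 above 0.

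**Figure D3:**
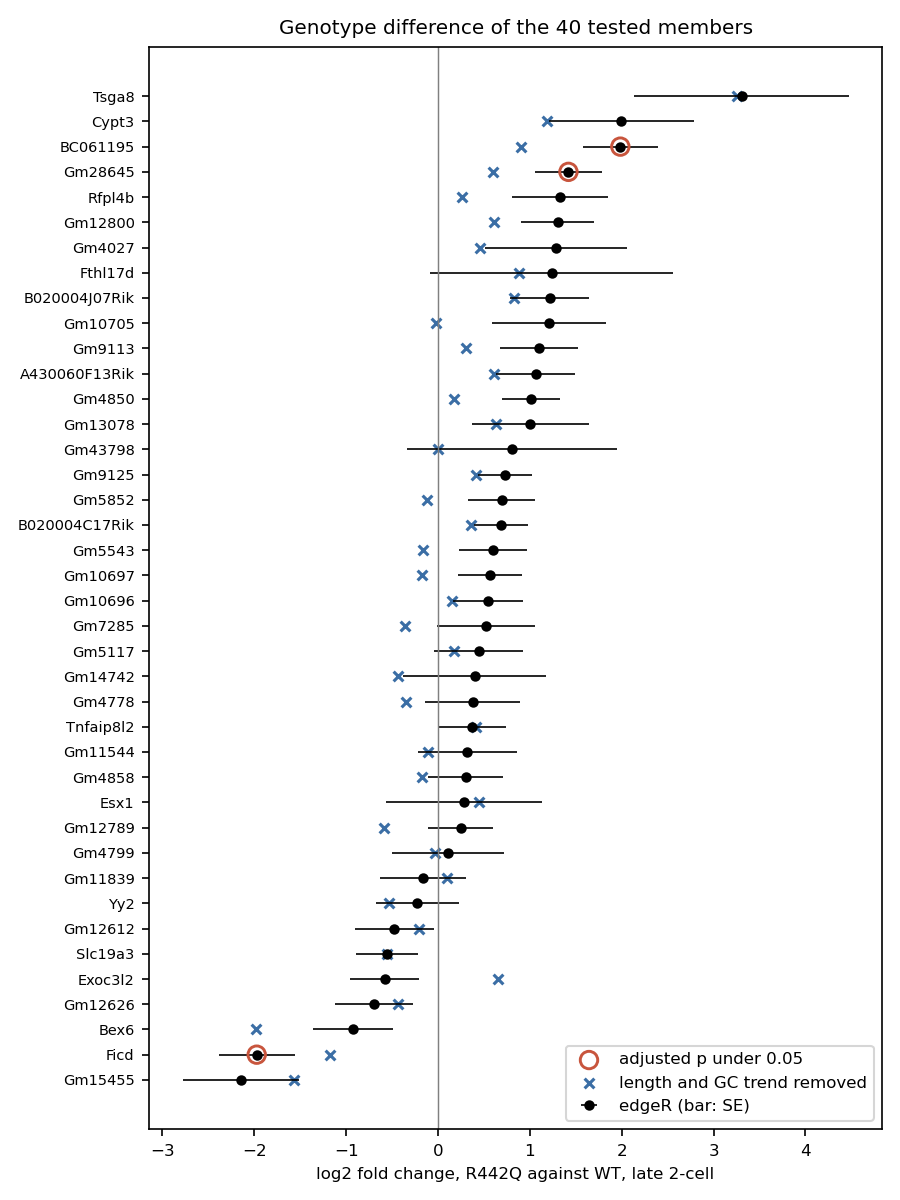
Log2 fold change of R442Q against WT late 2-cell embryos for the 40 tested members, edgeR estimate with SE (black), with circles on the 3 with an adjusted p under 0.05, and the estimate after removing the trend on length and GC (blue crosses). Of the black dots 31 lie right of 0, and 33 of the 40 crosses lie closer to 0 than their dots, with Bex6 and Exoc3l2 among the exceptions.

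The Tdpoz relatives had fitted log2 fold changes above 0 in 8 of 8, with a median of 0.58, and 0 were called (edgeR and DESeq2; 2 at an unadjusted p under 0.05 in edgeR). Their summed FPKM was 1769, 716, 893 and 1093 in WT and 1458, 1879, 1198, 1875 and 1704 in R442Q embryos. The groups overlapped, since WT replicate 1 was above 3 of the R442Q embryos. The highest of them, Gm5543, was at 579, 365, 298 and 464 FPKM in WT and 596, 798, 247, 616 and 802 FPKM in R442Q embryos, a log2 fold change of 0.60 ± 0.37 (edgeR, adjusted p = 0.38). R442Q replicate 3 was lower than every WT embryo and the other 4 were higher. Gm10697, which cannot be told from Tdpoz5, was at 251, 107, 148 and 214 FPKM in WT and 199, 359.6, 151, 267 and 294 FPKM in R442Q embryos, with overlap. Gm10696 was at 267, 51.1, 146 and 108 FPKM in WT and 140.5, 202, 237, 251 and 163 FPKM in R442Q embryos. On this scale WT replicate 1 was above all R442Q embryos. In CPM the highest R442Q embryo was at 539 and the highest WT embryo at 535. Gm9113 was at 109, 20.3, 52.4 and 51.0 FPKM in WT and 102, 168, 87.3, 150.4 and 85.0 FPKM in R442Q embryos. Apart from WT replicate 1, all of its WT embryos were below all R442Q embryos (1.10 ± 0.42, edgeR, adjusted p = 0.15). Gm5852, at 115, 33.9, 71.8 and 58.7 FPKM in WT and 103, 70.2, 114, 165 and 88.3 FPKM in R442Q embryos, overlapped more widely. Gm4778 was at 185.9 FPKM in WT replicate 1, 19.6, 41.5 and 51.9 FPKM in the other WT embryos and 55.1 to 147 FPKM in R442Q embryos. Removing the length and GC trend turned the sign of Gm5543, Gm10697, Gm4858, Gm5852 and Gm4778.

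The PRAME relatives were above 0 in 4 of 4, with a median of 1.11, and 0 were called (edgeR; 2 at an unadjusted p under 0.05, and 1 called by DESeq2). Gm12800, picked out after its values were seen, was at 80.0, 17.5, 58.2 and 63.7 FPKM in WT and at 80.7, 139, 122, 128 and 176 FPKM in R442Q embryos. The groups did not overlap, but the closest 2 embryos differed by less than 1 FPKM, and the log2 fold change of 1.30 ± 0.40 had an adjusted p of 0.0777 in edgeR and 0.0257 in DESeq2. B020004J07Rik was at 81.6, 29.3, 26.7 and 71.6 FPKM in WT and 130.3, 79.0, 59.6, 167 and 133 FPKM in R442Q embryos, at 1.22 ± 0.43 (edgeR, adjusted p = 0.122). Of its R442Q embryos, 3 were above all WT embryos. Gm12789 was at 273, 106, 121 and 99.3 FPKM in WT and 189, 161, 126, 184 and 203 FPKM in R442Q embryos, and WT replicate 1 was the highest of all 9. Removing the length and GC trend turned the sign of Gm12789.

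Among the copies of mRNA genes, 8 of the 12 tested were above 0, with a median of 0.48, and 1, Gm28645, was called (edgeR; 3 at an unadjusted p under 0.05). DESeq2 called 3 of 13, beside 10.5% of all genes with an adjusted p. Removing the length and GC trend turned the sign of Gm4799, Gm10705, Gm11839, Gm7285 and Gm43798. Gm4850, the other Alyref copy and the member with the highest WT mean, was at 684, 285, 366 and 582 FPKM in WT and 1033, 798, 899, 1123 and 855 FPKM in R442Q embryos. Its groups did not overlap, and the log2 fold change was 1.01 ± 0.31 (edgeR, adjusted p = 0.0816; DESeq2, 0.0217). Alyref itself, at 22.8 ± 3.99 FPKM (SD, n = 4) in WT and 43.0 ± 18.0 (n = 5) in R442Q embryos, did not pass the test (edgeR, adjusted p = 0.509). Gm15455, the copy of the splicing regulator gene Rbm10, went the other way, at 69.5, 52.3, 17.4 and 60.9 FPKM in WT and 5.55, 22.6, 9.42, 0.98 and 15.45 FPKM in R442Q embryos. Of these, 4 R442Q embryos were below every WT embryo, and the log2 fold change was -2.14 ± 0.64 (edgeR, adjusted p = 0.0728). Rbm10, with which it shares 32.5% of its 50-base stretches, had a log2 fold change of -1.74 ± 0.53 (edgeR, adjusted p = 0.0758). The Pabpc4 copies Gm12626, Gm12612 and Gm11839 were at -0.69, -0.48 and -0.16, and Pabpc4 was at -0.16, none passing the test (edgeR, adjusted p at least 0.38). Gm4027 was at 218.8, 5.19, 28.6 and 45.7 FPKM in WT and 57.35, 271.7, 94.1, 310.6 and 106.7 FPKM in R442Q embryos, so WT replicate 1 was again within the R442Q range and the other 3 were below it. Gm5117 was at 196, 36.6, 103 and 171 FPKM in WT and 95.9, 252, 223, 56.7 and 202 FPKM in R442Q embryos, and Gm7285 at 41.1, 47.0, 21.9 and 123.5 FPKM and 26.2, 112.6, 107.6, 68.2 and 108 FPKM. Both overlapped between groups.

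The 2 Tmem92-like pseudogenes were both above 0, with a median of 0.69, and 0 were called (edgeR and DESeq2; 1 at an unadjusted p under 0.05). A430060F13Rik was at 152, 42.2, 117.5 and 83.8 FPKM in WT and 232, 175, 149, 258 and 189.9 FPKM in R442Q embryos, at 1.06 ± 0.43 (edgeR, adjusted p = 0.169). Of its R442Q embryos 4 were above all WT embryos. The sign of Gm11544 turned with the length and GC trend removed and on rescaled FPKM.

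The X-linked members varied widely between embryos of one group. They were above 0 in 6 of 7, with a median of 1.24, and their summed FPKM was 1343, 262, 207 and 718 in WT and 867, 2575, 1839, 1943 and 2951 in R442Q embryos. WT replicate 1 was above R442Q replicate 1 and below the other 4. Tsga8, a testis-specific gene named here after its values were seen, was at 155, 65.6, 1.33 and 6.9 FPKM in WT and 21.6, 799, 129, 547 and 1123 FPKM in R442Q embryos. Its log2 fold change of 3.30 ± 1.17 came with overlapping groups and an adjusted p of 0.12 (edgeR). Cypt3, of a family of cysteine-rich sperm head proteins, was at 171, 15.99, 9.61 and 40.6 FPKM in WT and 28.7, 297, 439.7, 286 and 119 FPKM in R442Q embryos, at 1.99 ± 0.79 (edgeR, adjusted p = 0.163). Both genes were low in R442Q replicate 1 and high in WT replicate 1. Yy2 was at 47.4, 38.1, 25.1 and 90.1 FPKM in WT and 52.7, 41.7, 27.6, 16.8 and 64.85 FPKM in R442Q embryos, and did not separate them. Gm14742 was at 178, 8.25, 30.3 and 79.75 FPKM in WT and 66.4, 231, 27.7, 94.45 and 48.6 FPKM in R442Q embryos, also with overlap. Its sign turned with the length and GC trend removed.

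Fthl17d, a ferritin heavy chain-like gene of a cluster known for expression from the paternal X in early embryos, was either high or near 0. Its FPKM was 352, 0.21, 0.66 and 109.8 in WT and 293, 382, 159, 3.25 and 414 in R442Q embryos. The 3 embryos at 3.25 FPKM or less were the 3 with counts of the Y-linked genes Eif2s3y and Ddx3y, at 158 (WT replicate 2), 284 (WT replicate 3) and 127 (R442Q replicate 4), and the other 6 embryos had 0. Its neighbour in the family, Fthl17e, which shares 79.6% of the 50-base stretches of Fthl17d, was at 0 to 0.22 FPKM in the same 3 embryos and at 93.9 to 372 FPKM in the other 6. Among its other relatives, Fthl17f was at 0 to 7.99 FPKM in the 3 and 127.5 to 700.3 FPKM in the 6, and Fthl17c at 0 in the 3 and from 2.13 to 269.7 FPKM in the 6. Fthl17b overlapped, at 20.4 FPKM in R442Q replicate 4, which had Y-linked counts, and 17.65 FPKM in R442Q replicate 1, which had none, and Fthl17a was at 2.64 FPKM in 1 of the 6 and listed at 0 elsewhere. Of the WT embryos 2 of 4 had Y-linked counts and of the R442Q embryos 1 of 5, so the mean of Fthl17d in each group goes with its share of such embryos. BC061195, Tsga8, Cypt3, Esx1, Gm14742 and Yy2 did not divide this way: in each, the ranges of the 3 and the 6 embryos overlapped. Within the WT embryos alone, however, the 2 with Y-linked counts were below the other 2 in 5 of these 6 genes (not in Tsga8), and within the R442Q embryos the 1 with such counts was below the other 4 in 1, Yy2. For BC061195, which was called, the WT embryos without Y-linked counts were at 298 and 295 FPKM and the R442Q embryos without them at 389 to 1163 FPKM, while those with them were at 133 and 99.8 FPKM in WT and 866 FPKM in R442Q. The part of the unequal share of such embryos in this call was not tested.

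**Figure D4:**
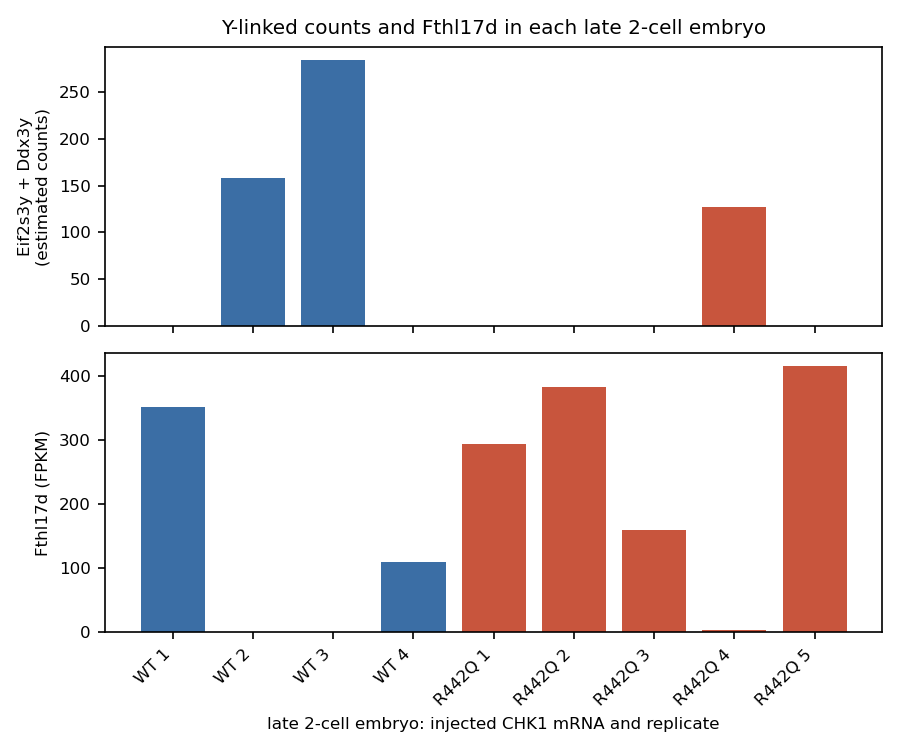
Estimated counts of Eif2s3y and Ddx3y together (upper bars) and FPKM of Fthl17d (lower bars) in each late 2-cell embryo, WT in blue and R442Q in red. The 3 embryos with Y-linked counts (127 to 284) have 0.21 to 3.25 FPKM of Fthl17d, and the 6 with 0 have 109.8 to 414.

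Of the 7 autosomal genes outside the related groups 3 were above 0, with a median of -0.56, and Ficd was called. The difference from the other groups was not tested. Slc19a3, a thiamine transporter gene, was at 152, 163, 122 and 165 FPKM in WT and 167, 104, 75.05, 58.65 and 119 FPKM in R442Q embryos, at -0.56 ± 0.33 (edgeR, adjusted p = 0.368). In FPKM R442Q replicate 1 was the highest of all 9 and the other 4 were below every WT embryo. In CPM 4 R442Q embryos were also below every WT embryo, but the highest R442Q embryo was at 446 and the highest WT embryo at 480. Bex6, of the brain-expressed Bex family, was at 165, 241, 68.4 and 149 FPKM in WT and 63.7, 48.0, 105, 38.3 and 146 FPKM in R442Q embryos, at -0.92 ± 0.44 (edgeR, adjusted p = 0.246), with overlap. Exoc3l2, related to an exocyst subunit gene, was at 148, 272, 112 and 198 FPKM in WT and 129, 89.0, 61.75, 122 and 172 FPKM in R442Q embryos. Its log2 fold change of -0.58 turned to 0.65 with the length and GC trend removed. The non-coding B020004C17Rik was at 522, 420.4, 300.4 and 418 FPKM in WT and 755, 521, 476, 686 and 720.4 FPKM in R442Q embryos, at 0.69 ± 0.29 (edgeR, adjusted p = 0.193), and only WT replicate 1 reached the R442Q range. Rfpl4b was at 191, 20.9, 69.8 and 149 FPKM in WT embryos beside the R442Q values above, and 3 R442Q embryos were above all WT embryos (1.33 ± 0.52, edgeR, adjusted p = 0.158).

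Summed over the 41, late 2-cell FPKM was 6800.5, 9245, 6967, 9301 and 9720 in R442Q embryos beside the WT values above, and WT replicate 1 exceeded 2 of them. As a share of counts this was 0.636% to 0.967%, against 0.444% to 0.904% in WT. The FPKM of a whole library summed to 893448 on average in R442Q and 733250 in WT late 2-cell embryos, and rescaling each library to the same sum moved the median log2 fold change of all genes to -0.20 and that of the members to 0.38, with 29 of 41 above 0. The 7 genes left out by name were above 0 in 7 of 7 (median 0.86; 0 called by edgeR with 2 at an unadjusted p under 0.05, and 1 by DESeq2), and of the 102 tested genes kept in blastocysts 62 were above 0 (median 0.19, 2 called higher and 11 lower). The difference between these sets was not tested. Of a wider list of 40 2-cell genes, which shares Gm4027 and B020004J07Rik with the members, 36 of 39 tested were above 0 (median 1.18), against 52.7% of all genes tested. Of 21 tested regulators of this programme edgeR called 0, with 6 at an unadjusted p under 0.05, while DESeq2 called 5 of the 22 it tested and, over all genes with an adjusted p, 10.5%. Of 21 tested oocyte transcripts 18 were above 0 (median 0.69) with 1 called higher, Ooep (edgeR), and their summed FPKM was 2176 to 4606 in WT and 2652 to 8710 in R442Q embryos. The 10 cumulus cell markers summed to 45.2 to 72.2 FPKM (median 62.2) in WT and 17.4 to 74.5 (median 28.9) in R442Q embryos, with Fshr and Inhba at 0 in all of them. Of the 3 that were tested, Amhr2, the receptor of anti-Müllerian hormone, fell by 1.37 ± 0.36 on the log2 scale, just past the threshold (edgeR, adjusted p = 0.05 when rounded), while Tnfaip6 and Cyp19a1 were at 1.49 and 0.18 and did not pass. The part of these oocyte and cumulus transcripts in the members' values was not tested.

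In zygotes, where the rule required WT means under 1 FPKM, the summed level of the 41 genes was higher in R442Q than in WT embryos, as a description with no test. Their summed FPKM was 11.3, 12.95, 11.75, 16.3 and 10.4 in WT and 55.4, 152, 28.3, 44.0, 38.8 and 36.8 in R442Q zygotes. Every R442Q zygote was above every WT zygote, also without R442Q replicate 2, the highest. The R442Q mean was above the WT mean in 36 of the 41. The low WT limit favours this direction, and of the 41 only 7 passed the filter on low counts, 4 of them with no WT zygote at 10 counts or more. Of these 7, edgeR called 5 higher, while it called 6.30% of all 12420 genes tested higher and 6.92% lower. Nothing is read from this count, since low WT values were required and these 4 entered the test through the R442Q embryos. The values of the 5 (Gm4027, B020004J07Rik, Gm10696, Gm5117 and Gm15455) are therefore given with no test. The 10 cumulus cell markers summed to 17.9 to 20.4 FPKM in WT and 12.1 to 16.9 FPKM in R442Q zygotes, with 0 of 3 tested called (edgeR). Of 8 tested blastocyst markers 2 were called higher (edgeR), beside the 6.30% of all genes. The part of these markers in the members' values was not tested.

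Gm4027, the Eif1a copy, was at 0.73, 0, 1.15, 1.6 and 0.19 FPKM in WT zygotes and between 3.86 and 20.4 FPKM in R442Q zygotes, with a median of 9.54. Its groups did not overlap. Of its 50-base stretches 94.4% occur in BB287469, so the 2 cannot be told apart well. B020004J07Rik was at 0.13 to 0.38 FPKM in WT and 0.63 to 11.35 FPKM (median 1.96) in R442Q zygotes, again without overlap. Gm10696 was at 0.18 to 0.3 FPKM in WT and 0.26 to 16.9 FPKM (median 1.54) in R442Q zygotes, where 5 of 6 were above all WT. Gm5117, the copy of the cap methylase gene Tgs1, was at 0.11 to 0.21 FPKM in WT and 0.44 to 7.06 FPKM (median 1.08) in R442Q zygotes. Gm15455 was at 0.05 to 0.23 FPKM in WT and 0.55 to 3.21 FPKM (median 0.725) in R442Q zygotes. All R442Q zygotes were above all WT zygotes in both. Over all genes tested, every R442Q zygote lay above every WT zygote in 3.44% and below in 5.23%, which is given as background and not set against the members, for the reason above. Slc19a3, at 0.18 to 1.82 FPKM in WT and 0.47 to 1.93 FPKM in R442Q zygotes, and Ficd, at 0.21 to 0.9 FPKM and 0.39 to 2.76 FPKM, did not pass (log2 fold changes of 0.55 and 1.09, edgeR, adjusted p = 0.574 and 0.272).

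**Figure D5:**
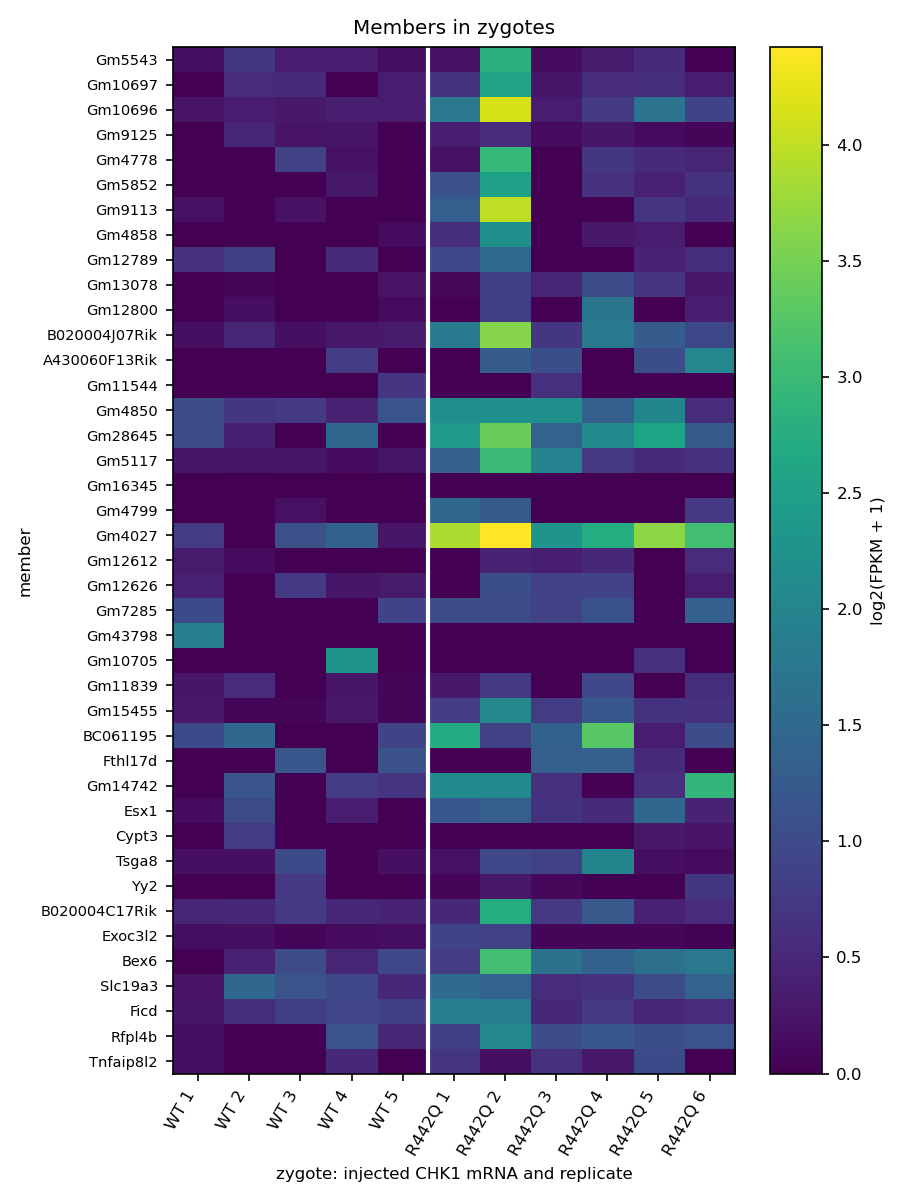
Heat map of log2(FPKM + 1) of the 41 genes (rows) in the 5 WT and 6 R442Q zygotes (columns, split by the white line), genes in the order of the plot of late 2-cell embryos. Most cells are near 0 in WT, R442Q replicate 2 is brightest in many rows, and Gm4027 is raised in all 6 R442Q zygotes.

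A further 13 members had a mean of at least 1 FPKM in R442Q zygotes without having been tested or named above as called. Several rested on R442Q replicate 2: the Tdpoz relatives Gm9113, Gm5852, Gm4778, Gm5543 and Gm10697 were at 14.96, 4.77, 6.82, 6.1 and 4.99 FPKM there and at 1.49 or less in the other R442Q zygotes. Gm5852 was still above all WT zygotes in 5 of 6 R442Q zygotes. Others were spread over more embryos. Gm28645 ran from 1.38 to 9.7 FPKM with 4 of 6 R442Q zygotes above all WT, Gm4850 from 0.47 to 3.64 FPKM with 5 of 6 above, and Bex6 from 0.7 to 7.6 FPKM with 5 of 6 above. BC061195 (0.27 to 8.68 FPKM), Gm14742 (0 to 6.64 FPKM), A430060F13Rik (0 to 3.15 FPKM) and Rfpl4b (0.78 to 3.25 FPKM) overlapped with WT. B020004C17Rik (0.33 to 5.65 FPKM) overlapped as well and rested on R442Q replicate 2, with 1.35 FPKM or less in the other R442Q zygotes. In the wider list of 2-cell genes 20 of 28 tested were called higher in R442Q zygotes (edgeR), 2 of them the members Gm4027 and B020004J07Rik. Nothing is read from this count either, since list genes near 0 in WT zygotes could enter the test through the R442Q embryos. Ubtfl1, for example, was at 0.16 ± 0.17 CPM in WT and 4.86 ± 3.56 CPM in R442Q zygotes (SD). Of the 22 oocyte transcripts 1 (Btg4) rose and 7 fell (edgeR). Over all genes tested, 6.30% were called higher and 6.92% lower.

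In blastocysts, under the CHK1 inhibitor, the 41 genes were low, with WT means under 1 FPKM by the rule, R442Q means under 1 FPKM in 34 of them and no value above 17.2 FPKM. Of the 41, 9 were at 0 in all 14 embryos, 1 passed the filter (Ficd), and 0 were called by limma (0 at an unadjusted p under 0.05), beside 1 of 11297 genes tested (0.00885%). Ficd was at 0 to 1.67 FPKM (median 1.35) in WT and 0 to 3.2 FPKM (median 0.62) in R442Q blastocysts, a difference of 0.12 ± 0.39 in log2(FPKM + 1) (limma, adjusted p = 0.968). The summed FPKM ran from 3.97 to 28.4 (median 8.11) in WT and from 4.49 to 40.98 (median 19.9) in R442Q blastocysts, and the groups overlapped. The R442Q mean was above the WT mean in 22 of the 41.

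Besides Ficd, 6 members had a mean of at least 1 FPKM in R442Q blastocysts, each with some embryos at 0. BC061195 was at 17.2 FPKM in R442Q replicate 7, the highest value of any member in any blastocyst, and at 1.31 FPKM or less in the other 6. Fthl17d was at 14.5 and 13.1 FPKM in R442Q replicates 1 and 3 and at 2.34 FPKM or less in every WT blastocyst. The highest values of Bex6 and Rfpl4b were in R442Q replicate 3, at 6.78 and 4.48 FPKM, that of Slc19a3 in R442Q replicate 4, at 6.47 FPKM, and that of Gm7285 in R442Q replicate 2, at 4.71 FPKM. No one embryo was highest in all 6.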

How the data were processed

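RNA was measured in 34 single mouse embryos, grouped by the stage and genotype in their labels. For zygotes and late 2-cell embryos the authors deposited estimated counts per gene symbol, and for all 3 stages they deposited FPKM. RSEM and the genome build mm10 are named in the submitters' processing notes. The aligner, the annotation, the use of strand and the program versions are not given in the sources used here.

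Counts were rounded and fitted per stage in R 4.3.3 with the edgeR 4.0.16 quasi-likelihood test (filterByExpr with a minimum count of 10, TMM scaling), R442Q against WT, and R442Q late 2-cell embryos against R442Q zygotes. For blastocysts, log2(FPKM + 1) of genes with at least 1 FPKM in at least 7 of 14 embryos went into limma 3.58.1 (trended variance), and this scale understates changes of low genes. P-values were adjusted by the Benjamini-Hochberg method over all genes tested, with a threshold of 0.05. FPKM of different stages were compared only as levels. A gene at 0 was given a floor of 3 counts, which covers counting error only, since amplified reads are not independent molecules. The scripts were checked on simulated data.

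Positions, lengths and GC content are from GENCODE M21 (GRCm38). Transcripts were compared with blastn 2.17.0 and by shared stretches of 50 bases; related groups were assigned by hand from those results. Motifs were searched on both strands in the 250 bases before RefSeq starts.

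The members and lists were chosen with earlier results of these data known. Named with their values are the 12 members with the highest WT late 2-cell mean, members called in late 2-cell embryos, members with an R442Q mean of at least 1 FPKM in zygotes or blastocysts, members in the list of 2-cell genes, and the 2 symbols nearest each limit on each side. All other members given with values, such as Tsga8, Cypt3, Gm12800 and, in the closing section, Tnfaip8l2, Gm9125, Esx1 and Gm4799, were chosen after their values were seen, as were the Fthl17 relatives, Amhr2, the Y-linked genes and the genes the copies derive from.

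Alternatives were RLE scaling, no filter, DESeq2 1.42.0, limma on FPKM, both stages in one fit, the replicate number as a block, leaving out each embryo, removal of each library's trend on length and GC content (splines with 5 degrees of freedom), and other limits of the rule. FPKM rescaled to a library sum of 1000000, limma on zygote FPKM, a block on the numbers in the descriptions and the rule without each WT embryo were added after seeing the data. For the list of 2-cell genes, the calls in late 2-cell embryos and the lower calls in zygotes are not reported here.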

Additional observations from a re-analysis of the deposited data

Results flagged for a closer look

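Of 88 sets of values looked at, each a gene or a sum within 1 group of embryos, 5 (5.68%) had 1 embryo far from the rest by Dixon's criterion, and chance flags about 1 in 20; the sets share embryos. In zygotes, the summed FPKM of the 41 genes was 152 in R442Q replicate 2 and at most 55.4 in the other 5 R442Q embryos. In blastocysts the same sum was 28.4 in WT replicate 2 and at most 11.3 in the other 6 WT embryos. In late 2-cell embryos, Tnfaip8l2 was at 208 FPKM in R442Q replicate 1, Gm12789 at 273 FPKM in WT replicate 1 and Gm9125 at 159.8 FPKM in WT replicate 1, each far above the other embryos of its group. WT replicate 1 is the embryo that was highest of 4 in 31 of the 41 genes.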

How the results depend on the processing

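The count of 3 members called in late 2-cell embryos became 6 with no filter on low counts, 6 with DESeq2, 6 with both stages in one fit, 0 with the length and GC trend removed, and 0 to 4 when each embryo was left out; over all genes with an adjusted p, 4.18% became 3.32%, 10.5%, 15.5%, 0.909% and 0.967% to 6.76%. The 5 members called in zygotes became 9 with no filter, 12 with DESeq2, 3 with limma on FPKM, and 2 to 6 when each embryo was left out; over all genes, 13.2% became 6.34%, 13.5%, 13.9% and 8.88% to 14.2%. The rule itself gave 84 genes with a late 2-cell minimum of 25 FPKM, 17 with 100 FPKM, 26 with a zygote and blastocyst maximum of 0.5 FPKM, 60 with 2 FPKM, 27 from the R442Q columns, 41 with medians in place of means, of which 31 were among the members, and 26 to 46 without each WT embryo. The stage change of R442Q embryos gave 39 to 41 members called under all alternatives, and in blastocysts 0 were called throughout. The cause was not tested except where fewer embryos or another number of genes tested made it plain.

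Replicate numbers are shared between groups, but embryos of one number did not deviate together (correlations by the titles' numbers of -0.14 to 0.21 in late 2-cell embryos, -0.06 to 0.06 in zygotes and -0.17 to 0.20 in blastocysts), so the numbers are not taken as pairs. With the number as a replicate block, 0 members were called in late 2-cell embryos (13 at an unadjusted p under 0.05, and 58 of all 13883 genes called; adjusted p of Ficd 0.0524, BC061195 0.0781 and Gm28645 0.0868 in edgeR), 5 in zygotes, 39 for the stage change and 0 in blastocysts; Gm4799 turned to -0.32. The labels' descriptions number zygotes and late 2-cell embryos differently, and these numbers did not pair them either (-0.14 to -0.06 and -0.07 to 0.04). A replicate block on them, added after seeing the data, left 0 members called in late 2-cell embryos (10 at an unadjusted p under 0.05 in edgeR, and 0 of all genes called), 4 in zygotes and 39 for the stage change, with Gm4799 at -0.829, Gm5117 at -0.0053 and Gm7285 at -0.017.

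Log2 fold changes in late 2-cell embryos turned sign for members that had not passed the test. With the length and GC trend removed they were 0.65 for Exoc3l2, -0.031 for Gm4799, -0.017 for Gm10705, -0.59 for Gm12789, -0.11 for Gm11544, 0.10 for Gm11839, -0.43 for Gm14742, -0.35 for Gm4778, -0.18 for Gm10697, -0.18 for Gm4858, -0.16 for Gm5543, -0.12 for Gm5852, -0.36 for Gm7285 and -0.0026 for Gm43798. On rescaled FPKM, Tnfaip8l2 was at -0.027, Gm4799 at -0.31 and Gm11544 at -0.020, and on FPKM Gm4799 was at -0.035. Leaving out single embryos gave -0.13 to 0.87 for Esx1, -0.31 to 0.34 for Gm4799, -0.52 to 0.063 for Gm11839, -0.26 to 1.25 for Gm14742 and -0.46 to 0.24 for Yy2. Low counts and sequence shared with copies limit single members, and blastocyst depth is unknown.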
